A study of Mus musculus with 44 samples.

Results

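The acetylation of histone H3 at lysine 27 (H3K27ac) in Smad2HA/+ granulosa cells was compared between GDF9 and vehicle. The comparison used the 4 H3K27ac libraries of this line, 2 per treatment, of 44 samples in the series, and the peaks on chromosomes 1 to 19 and X. These lists held 13313 and 12098 peaks with GDF9 (replicates 1 and 2) and 10413 and 9753 with vehicle, which joined into 11653 separate regions. The libraries were made by CUT&RUN, in which an antibody directs a nuclease to cut and release the chromatin around its target.

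Cells of both treatments came from female mice aged 3 to 4 weeks on a mixed C57BL/6J × 129S5/SvEvBrd background, and all carried an HA tag on 1 Smad2 allele. The mice received 5 IU of pregnant mare serum gonadotropin, ovaries were taken 46 h later, and the granulosa cells of 8 mice were pooled and cultured for 4 days. The cells then received recombinant mouse GDF9 at 100 ng/mL or vehicle for 4 h. Because cells of several mice were pooled, p-values here measure only the spread between these libraries, which may be technical. In such bulk libraries, fewer cells that carry a mark and less mark per cell cannot be told apart.

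GDF9 is a TGFβ family ligand that the oocyte secretes and that signals through receptor kinases to SMAD2 and SMAD3, which enter the nucleus with SMAD4. H3K27ac is deposited by CBP and p300 at active promoters and enhancers, and wide acetylated domains often lie at genes that define a cell type. In granulosa cells of the preovulatory follicle, GDF9 is known for cumulus expansion, in which Has2, Ptgs2, Ptx3 and Tnfaip6 are induced.

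The lists overlapped widely. Of the 11653 regions, 7720 (66.2%) held a peak in all 4 lists, and 79.7% to 96.0% of the peaks of any list met a peak of any other. The bases in common, as a share of the bases in either list, came to 0.771 between the GDF9 replicates, 0.766 between the vehicle replicates and 0.747 to 0.763 between treatments. The markers of granulosa cells lay in peaks in part. Start sites of 9 of 14 granulosa markers lay in a peak of all 4 lists, among them Amh, Foxl2, Inha, Esr2 and Cyp11a1, while those of Fshr, Cyp19a1, Nr5a2 and Lhcgr lay in none. No start site of the 5 markers each of theca, stroma and endothelium lay in all 4 lists, whereas Cd68 of 5 macrophage markers, Gdf9 of 5 oocyte markers and Krt8, Upk3b and Wt1 of 5 surface epithelium markers did.

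The sequences at the peak maxima are shown for 6 regions whose maximum signal differed between treatments and which are described in full below. Each is the 300 bases of mm10, plus strand, around the point of highest signal in GDF9 replicate 1, and capitals mark the SMAD-binding letters CAGAC or their complement GTCTG. In the regions at Dhx36 and Gja5 and near Tlr4 and Ttc39a, the vehicle maxima lay outside these windows, as given below. The region at Dhx36 is shown first because its maximum lay 0.322 kb from the gene's start site in GDF9 cells (chr3:62506532-62506831). Windows 2 to 4 lie 137.5, 383.1 and 260.8 kb from the nearest start sites, those of Zfpm1 (chr8:122144454-122144753), Tlr4 (chr4:67210542-67210841) and Cdh26 (chr2:178691205-178691504). The last 2 windows are those of the regions that were lower with GDF9, 14.92 kb from the start site of Gja5 (chr3:96889623-96889922) and 28.29 kb from that of Ttc39a (chr4:109378181-109378480).
Dhx36: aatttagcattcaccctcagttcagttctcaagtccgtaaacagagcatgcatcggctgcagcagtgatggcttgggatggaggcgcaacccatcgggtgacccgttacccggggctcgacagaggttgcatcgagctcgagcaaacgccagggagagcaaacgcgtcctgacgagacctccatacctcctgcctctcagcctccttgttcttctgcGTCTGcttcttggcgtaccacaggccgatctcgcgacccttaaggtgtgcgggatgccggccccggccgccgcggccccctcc
near Zfpm1: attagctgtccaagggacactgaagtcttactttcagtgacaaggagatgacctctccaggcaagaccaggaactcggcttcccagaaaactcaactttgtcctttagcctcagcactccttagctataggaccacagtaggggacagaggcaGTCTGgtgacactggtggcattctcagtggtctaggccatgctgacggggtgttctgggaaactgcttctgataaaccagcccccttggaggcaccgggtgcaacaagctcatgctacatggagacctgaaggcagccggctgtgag
near Tlr4: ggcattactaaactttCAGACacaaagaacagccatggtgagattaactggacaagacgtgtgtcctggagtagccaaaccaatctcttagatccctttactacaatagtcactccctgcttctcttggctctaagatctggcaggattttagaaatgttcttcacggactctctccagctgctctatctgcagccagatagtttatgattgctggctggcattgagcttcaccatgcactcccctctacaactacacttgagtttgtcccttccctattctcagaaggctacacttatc
near Cdh26: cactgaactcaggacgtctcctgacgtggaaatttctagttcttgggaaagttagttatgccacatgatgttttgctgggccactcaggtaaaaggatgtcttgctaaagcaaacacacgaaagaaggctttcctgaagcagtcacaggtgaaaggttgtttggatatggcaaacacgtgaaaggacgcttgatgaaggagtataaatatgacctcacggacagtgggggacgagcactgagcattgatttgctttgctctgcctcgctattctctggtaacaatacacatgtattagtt
Gja5: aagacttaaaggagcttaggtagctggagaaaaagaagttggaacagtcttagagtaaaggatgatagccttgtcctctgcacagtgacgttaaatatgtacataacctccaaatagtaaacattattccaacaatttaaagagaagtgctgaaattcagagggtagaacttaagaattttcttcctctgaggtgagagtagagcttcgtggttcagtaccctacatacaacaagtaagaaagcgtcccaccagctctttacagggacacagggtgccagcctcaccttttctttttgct
near Ttc39a: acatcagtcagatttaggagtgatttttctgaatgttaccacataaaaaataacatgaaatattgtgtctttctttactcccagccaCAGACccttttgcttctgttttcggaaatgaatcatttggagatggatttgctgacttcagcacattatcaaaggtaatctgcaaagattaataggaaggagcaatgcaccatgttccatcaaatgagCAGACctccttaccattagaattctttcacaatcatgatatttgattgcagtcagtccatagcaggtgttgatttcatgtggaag

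Of the 4 windows shown that were higher, those at Dhx36 and near Zfpm1 and Tlr4 held 1 SMAD motif each and the window near Cdh26 none. The window near Ttc39a held 2 and the window at Gja5 none. Among the windows of all 7720 regions in all 4 lists, 53.8% held the motif on either strand, and so did 49.6% of 32851 RefSeq promoters of the same length (mm10).

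The first comparison concerned the number and the width of peaks. GDF9 lists held more and narrower peaks than vehicle lists. The median width was 18.6 and 21.5 kb with GDF9 and 26.7 and 29.3 kb with vehicle, which gave means of 20.04 ± 2.09 kb and 28.0 ± 1.78 kb (SD, n = 2) and a ratio of 0.716. Peaks under 10 kb numbered 2463 and 1508 with GDF9 (18.5% and 12.5% of the list) but 656 and 447 with vehicle (6.30% and 4.58%). Peaks of 100 kb or more numbered 902 and 1025 with GDF9 and 1099 and 1160 with vehicle. In each of these measures the treatments did not overlap. Peaks between 20 and 50 kb were about as many in every list, with 3688 and 3628 against 3658 and 3711. An exact two-sided permutation test over the libraries gave p = 0.333 for the median width and for the number of peaks, the smallest p that 2 against 2 libraries allow.

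Covered bases were 456 and 468 Mb with GDF9 and 472 and 471 Mb with vehicle, or 17.3% to 17.9% of the genome. The difference of −9.79 Mb was −3.72 Mb without GDF9 replicate 1 and −15.85 Mb without GDF9 replicate 2. In lists cut at 1 lowest total signal, as described next, they were 418 and 436 Mb against 463 and 471 Mb. Among the 50% of peaks with the largest maxima they were 335 and 341 Mb against 338 and 330.0 Mb, and the treatments overlapped. Peaks over start sites were wider than others in every list, though a wider peak is also likelier to hold a start site. Peaks over the start site of a protein-coding gene had median widths of 35.0 and 39.0 kb with GDF9 and 43.4 and 45.6 kb with vehicle, and peaks elsewhere 13.8 and 15.6 kb against 18.8 and 20.9 kb.

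The limits of the lists differed with treatment. Each deposited list ends at another lowest total signal, the sum of scaled coverage over a peak. It was 26449 and 28398 with GDF9 and 37022 and 40282 with vehicle. With all 4 lists cut at the highest of these values, 9828 and 9410 peaks were left with GDF9 and 9752 and 9753 with vehicle. The median widths were then 26.5 and 29.6 kb against 28.8 and 29.3 kb and the treatments overlapped, and the difference of −7.96 kb shrank to −0.992 kb. Among the 50% of peaks with the largest maxima in each list it was −11.87 kb instead, with 32.6 and 38.0 kb against 45.9 and 48.4 kb. The spike-in fragments behind the scaling overlapped between treatments (462750 and 531793 against 493042 and 508479), and so did the mean depth in peaks, with 26.1 and 28.1 against 26.7 and 26.7 fragments. The total number of reads is not known from the lists, and its part in the lowest total signal was not tested.

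**Figure D1:**
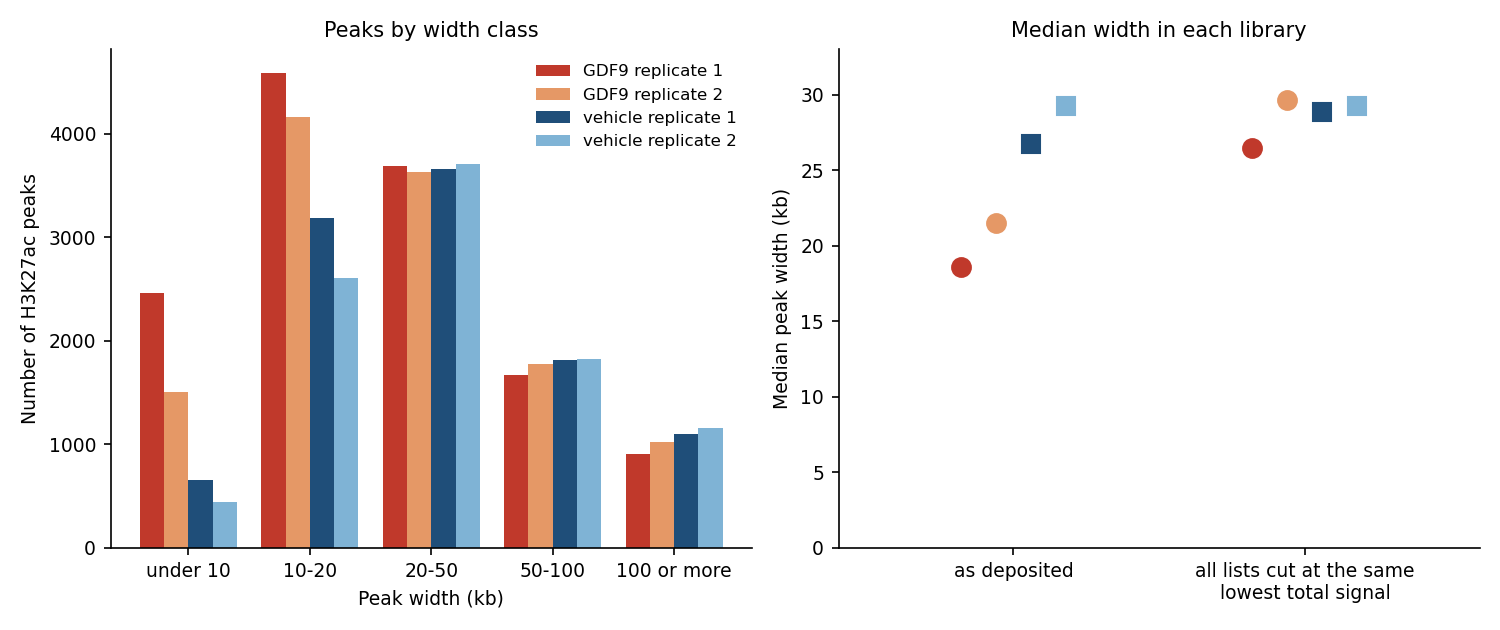
Left, number of H3K27ac peaks (y) in 5 width classes in kb (x), with 1 bar per library. Right, median peak width in kb (y) of each library, with all deposited peaks and after all lists were cut at 1 lowest total signal (x); circles are GDF9 libraries and squares vehicle libraries. The GDF9 lists hold the most peaks under 10 kb (2463 and 1508), and the medians overlap after the cut.

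The next comparison asked whether wide vehicle peaks were cut into narrower peaks with GDF9. A peak was called wide from 49.6 kb, the 75th percentile of all 4 lists pooled, and split in another list where at least 2 peaks of that list touched it. Of 2942 wide peaks of vehicle replicate 1, 1000 (34.0%) were split in GDF9 replicate 1 and 834 (28.3%) in GDF9 replicate 2. Of 3015 wide peaks of vehicle replicate 2, 1060 (35.2%) and 876 (29.1%) were split. In reverse, 368 (14.1%) and 306 (11.7%) of 2605 wide peaks of GDF9 replicate 1 were split in vehicle replicates 1 and 2, and 488 (17.2%) and 427 (15.1%) of 2833 of GDF9 replicate 2. The 2 directions did not overlap and differed by 17.1 percentage points (means 31.6% and 14.5%, exact permutation p = 0.333, the smallest possible).

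Replicates of 1 treatment also split each other's peaks. The share was 18.1% for GDF9 replicate 1 read in replicate 2 and 28.5% for the opposite, and 18.8% and 22.5% for the vehicle replicates. The highest of these, 28.5%, exceeded the lowest vehicle-to-GDF9 share of 28.3%. With the lists cut at 1 lowest total signal the shares were 24.6% to 30.1% from vehicle to GDF9, 11.7% to 16.8% from GDF9 to vehicle and 15.7% to 24.4% within a treatment. The difference of 17.1 points was 12.8 points after this cut. It was 12.55 points without GDF9 replicate 1 and 21.64 points without GDF9 replicate 2.

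**Figure D2:**
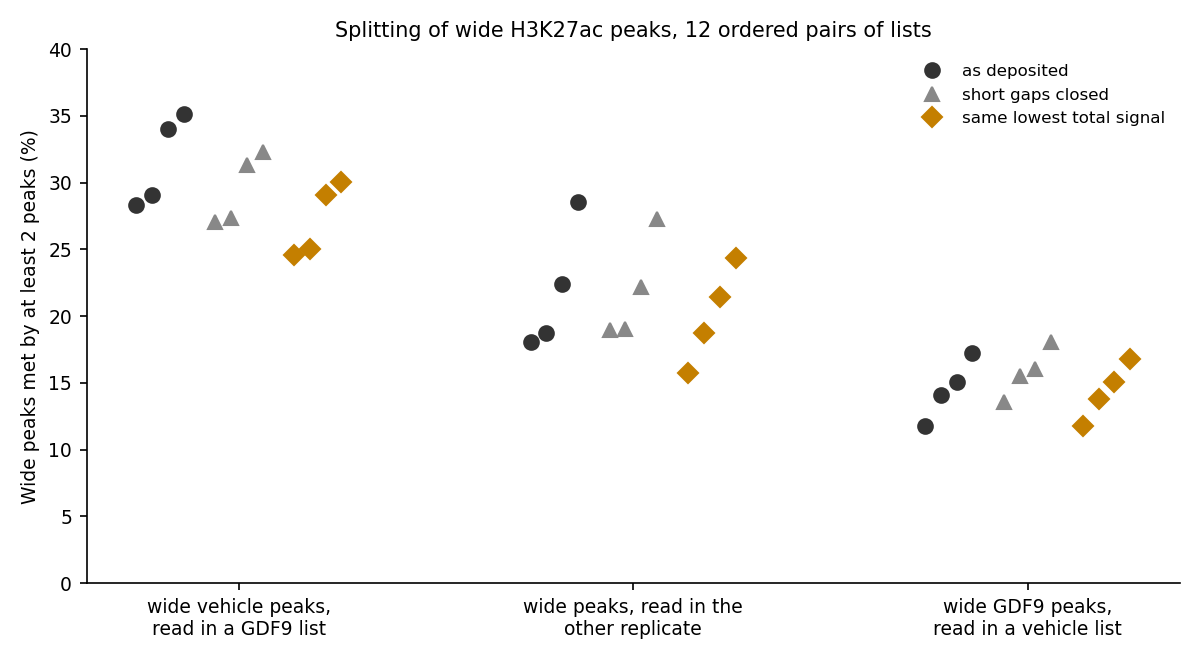
Share in percent of wide H3K27ac peaks that at least 2 peaks of another list touched (y), for the 12 ordered pairs of the 4 lists, grouped by direction (x). Circles are the deposited lists, triangles lists whose short gaps were closed, and diamonds lists cut at 1 lowest total signal. In each of the 3 settings all 4 vehicle-to-GDF9 pairs lie above all 4 GDF9-to-vehicle pairs, with the same-treatment pairs between them or overlapping.

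Split peaks mostly broke into 2 pieces and stayed largely covered. Of the 1000 peaks of vehicle replicate 1 that were split in GDF9 replicate 1, 750 met 2 peaks, 208 met 3 and 42 met 4 or more. The median gap between pieces was 7.56 kb, and the pieces covered a median of 86.2% of the vehicle peak. Their total signal, which includes parts of the pieces beyond the vehicle peak, was a median of 0.957 of the vehicle peak's. In GDF9 replicate 2 these values were 7.92 kb, 87.8% and 0.93. Over the genome, 15.1 Mb lay in both vehicle lists and neither GDF9 list, of which 3.90 Mb were gaps between GDF9 peaks of a region in all 4 lists and 9.64 Mb were edges of such regions. The opposite, both GDF9 lists and neither vehicle list, took 13.6 Mb, of which 1.13 Mb were gaps and 4.45 Mb edges, and 355 Mb lay in all 4 lists.

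Splits in both GDF9 lists concerned 597 wide peaks of vehicle replicate 1 (20.3%) and 622 of replicate 2 (20.6%). Splits in both vehicle lists concerned 136 wide peaks of GDF9 replicate 1 (5.22%) and 214 of replicate 2 (7.55%). Of these, 281 and 269 vehicle peaks and 49 and 51 GDF9 peaks were also 1 peak in the other replicate of their own treatment. The widest vehicle replicate 1 peaks that were split in both GDF9 lists serve as examples.

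The widest, of 453 kb (chr9:70188784-70642001), covers the start sites of Myo1e, a class I myosin, Ccnb2, the mitotic cyclin B2, Rnf111, the ubiquitin ligase Arkadia that removes SMAD inhibitors, and Sltm. It met 2 GDF9 peaks in each replicate, 16.1 and 8.94 kb apart, but also 2 peaks in vehicle replicate 2, 9.14 kb apart. The peaks there, parts beyond it included, had a summed total signal of 2.11e+06 and 2.02e+06 with GDF9 and 2.15e+06 and 2.14e+06 with vehicle.

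The peak of 444 kb at Tigit, an inhibitory receptor of lymphocytes (chr16:43231139-43675571), met 4 peaks in each GDF9 list, 1 in vehicle replicate 1 and 3 in vehicle replicate 2. A peak of 412 kb whose nearest start site is that of Lpp, a focal adhesion protein (chr16:24589008-25000833), met 2 and 3 peaks with GDF9 and 1 and 3 with vehicle. The peak of 406 kb over Pex14, Dffa, Cort, Cenps, Pgd, Kif1b and Ube4b (chr4:149043064-149449263) met 3 and 2 peaks with GDF9 and 1 and 3 with vehicle. So 4 of these 5 peaks were also split in vehicle replicate 2.

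The fifth peak was 1 peak in both vehicle lists. It spans 352 kb (chr15:62015020-62367416), and its nearest start site is that of Myc, a proto-oncogene that drives growth and proliferation. Each GDF9 list had 2 peaks there, with a gap of 3.28 kb in replicate 1 and of 4.08 kb in replicate 2, at different places. The smallest gap between any 2 peaks was 2540 and 2880 bases in the GDF9 lists and 3322 and 3532 bases in the vehicle lists, so the gap of 3.28 kb is shorter than any in a vehicle list. The peaks there, parts beyond it included, had a summed total signal of 3.17e+06 and 3.07e+06 with GDF9 and 3.12e+06 and 3.30e+06 with vehicle. The treatments overlapped.

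**Figure D3:**
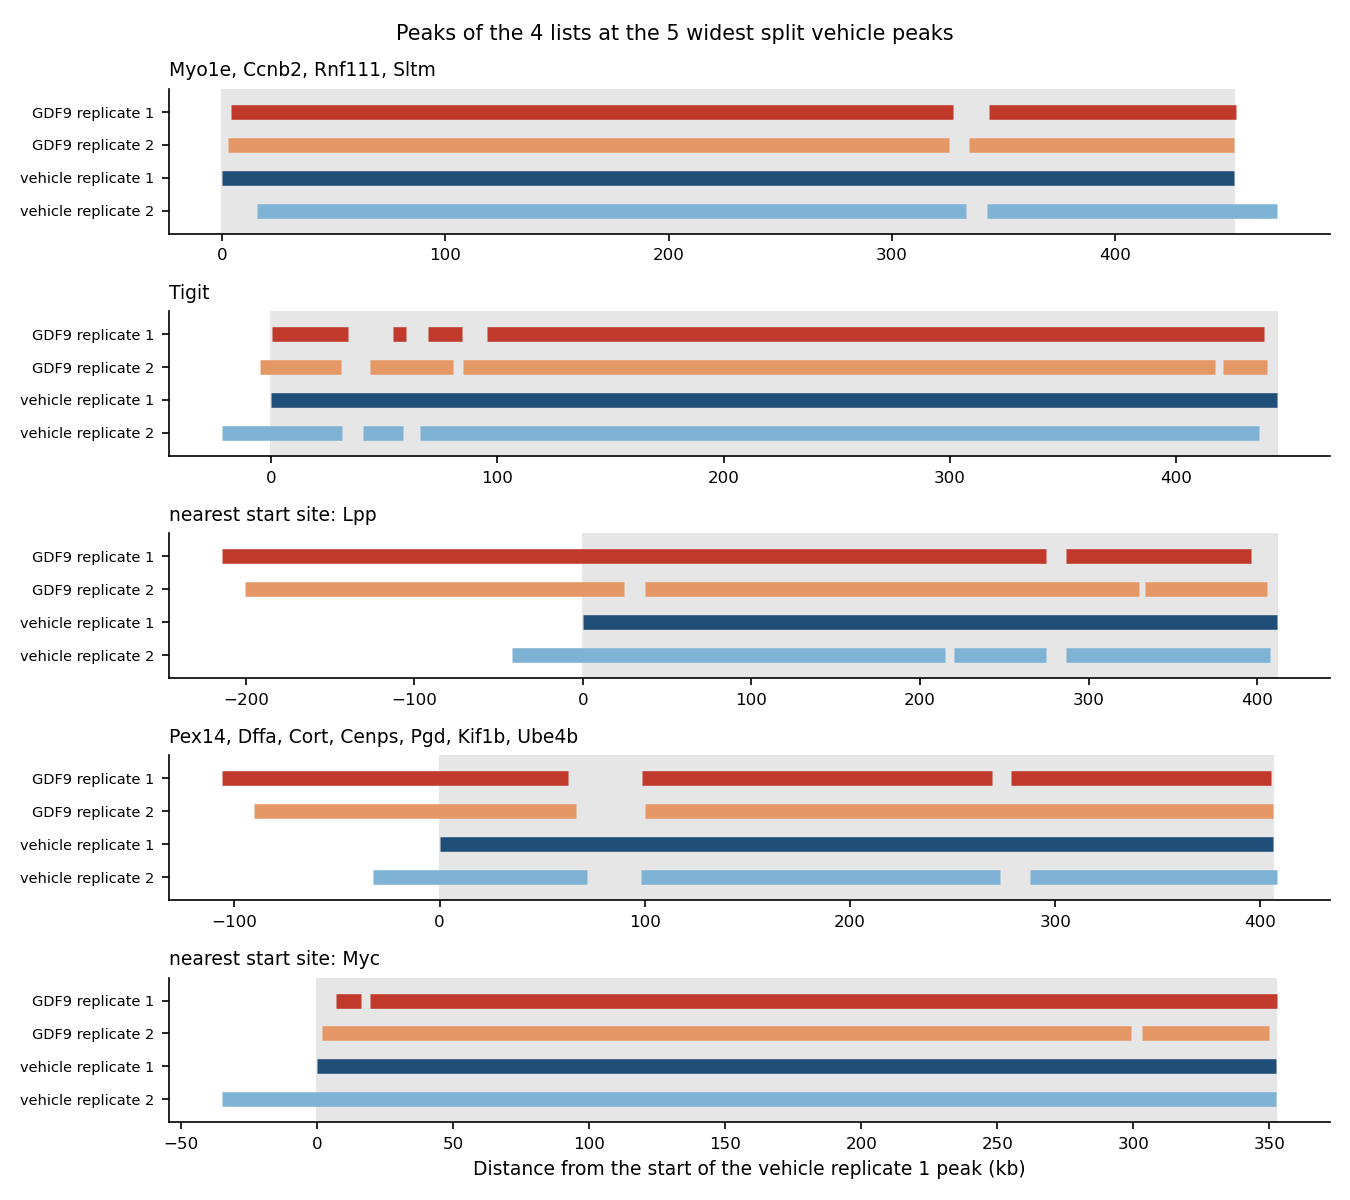
Peaks of the 4 lists (y, 1 bar colour per library) at the 5 widest peaks of vehicle replicate 1 that were split in both GDF9 lists, by distance in kb from the start of that peak (x); grey marks its extent. The first 4 are also broken in vehicle replicate 2, and the fifth is not.

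Within the 7720 regions in all 4 lists, GDF9 lists held 1.34 and 1.26 peaks per region and vehicle lists 1.18 and 1.15. Each GDF9 list had more peaks than each vehicle list in 393 regions (5.09%), the opposite held in 39 (0.505%), and 5272 had 1 peak in each list. In the last, the place of the maximum moved by a median of 0.148 to 0.167 kb between any 2 lists, the pairs of 1 treatment included.

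The peak over a gene's start site was then compared by width. Of 21728 protein-coding genes, 10542 and 10530 had their start site in a GDF9 peak and 10494 and 10247 in a vehicle peak, and 9245 (42.5%) in a peak of all 4 lists. That peak was narrower in both GDF9 lists than in both vehicle lists at 3068 of the 9245 genes (33.2%) and wider at 751 (8.12%). Of 81 listed genes in all 4 lists, 28 (34.6%) were narrower and 10 wider, a share near that of all genes. These are genes of TGFβ signaling and ovarian function, immediate early genes, genes the study names and markers of granulosa and other cell types. With the lists cut at 1 lowest total signal, the peak was narrower at 2944 of 8969 genes (32.8%). This cut drops whole peaks and cannot change the width of a kept peak, so this share is no check on the narrowing. With gaps closed up to 3532 bp, which can change widths, the peak was narrower at 2904 of 9248 genes (31.4%) and wider at 803 (8.68%). These counts were read from single peaks and carry no test.

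Among the feedback genes of SMAD signaling, 17 of 18 start sites lay in all 4 lists, 5 of them narrower and 1 wider with GDF9. Id1, an inhibitor of basic helix-loop-helix factors, lay in a peak of 30.1 and 23.5 kb with GDF9 and of 145 and 132 kb with vehicle. The region of Id1 held 4 and 2 peaks with GDF9 and 1 in each vehicle list, and its summed total signal was 1.24e+06 and 1.23e+06 against 1.30e+06 and 1.21e+06, which overlap. The maximum signal of the region was 56.0 and 51.9 against 46.6 and 47.8 (0.19, log2, limma adjusted p = 0.382). Tgif1, a corepressor of SMADs, had 31.2 and 31.0 kb against 39.8 and 34.2 kb. Smad7, an inhibitory SMAD, overlapped, with 104 and 188 kb against 74.0 and 299 kb, as did Skil and Fst.

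Of 21 immediate early genes, 18 lay in all 4 lists, 8 narrower and 2 wider. Klf6, a zinc finger factor, had peaks of 23.3 and 39.3 kb with GDF9 and 83.9 and 147 kb with vehicle. Fosl1, an AP-1 subunit, had 69.9 and 98.4 kb against 168 and 149 kb, and Jun 13.8 and 10.8 kb against 26.2 and 16.2 kb. At Myc the size of the difference came from 1 library. Its peak had 20.8 and 22.2 kb with GDF9, 24.2 kb in vehicle replicate 1 and 387 kb in vehicle replicate 2. The wider ones were Fosb, with 75.4 and 80.4 kb against 72.2 and 74.5 kb, and the nuclear receptor gene Nr4a2.

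Receptors, ligands and SMADs went both ways, with 4 narrower and 4 wider of 16 in all 4 lists. Smad3 had peaks of 68.2 and 24.2 kb with GDF9 and 73.0 and 128 kb with vehicle, and Acvr2a, an activin receptor, 32.6 and 6.34 kb against 67.8 and 204 kb. Tgfbr2, the type II TGFβ receptor, was wider at 94.4 and 43.3 kb against 37.8 and 28.0 kb, and so was Acvr1, a type I receptor, at 133 and 142 kb against 105 and 75.1 kb. Inhba, the βA subunit of inhibin and activin, differed little, with 36.8 and 37.1 kb against 34.5 and 34.1 kb.

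Granulosa and steroid genes held some of the widest peaks. Amh, the anti-Müllerian hormone, lay in peaks of 296 and 303 kb with GDF9 and 287 and 292 kb with vehicle, and Esr2, the estrogen receptor β, in 381 and 387 kb against 401 and 390 kb. Foxl2, the transcription factor that keeps granulosa cell identity, was wider with GDF9, at 42.1 and 43.4 kb against 34.0 and 30.8 kb. Nr5a1, the steroidogenic factor 1, was narrower, at 59.4 and 63.6 kb against 86.5 and 85.8 kb. Cyp11a1, the side-chain cleavage enzyme that starts steroid synthesis, had 46.2 and 49.6 kb against 50.2 and 60.4 kb. Star, the cholesterol carrier of mitochondria, overlapped, at 282 and 328 kb against 334 and 281 kb.

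Few start sites of cumulus expansion genes lay in a peak of all 4 lists, with 25% against 42.55% of all genes. Of 16, 4 had their start site in all 4 lists, namely Ptgs2, Adamts1, Ptger2 and Ptges. Ptx3, Areg, Pgr and Edn2 were in none, as were 46.61% of all genes. Single lists held 7 and 9 of the 16 with GDF9 and 7 and 6 with vehicle. Has2, the hyaluronan synthase, lay in a peak of vehicle replicate 1 alone, of 20.2 kb and a total of 38291, under the common lowest total signal. Tnfaip6, which links heavy chains to hyaluronan, had its start site in a vehicle replicate 1 peak of 24.3 kb alone. Peaks of both GDF9 lists lay elsewhere in the same region, with maxima of 24.4 and 19.9 against 17.8 in vehicle replicate 1 and no peak in vehicle replicate 2. Cd44, the hyaluronan receptor, lay in both GDF9 lists (16.6 and 18.7 kb) and no vehicle list, where a peak below the lists' limits is not seen. Ptgs2, the prostaglandin synthase COX-2, had 48.9 and 37.9 kb with GDF9 and 37.4 and 86.1 kb with vehicle.

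Of 19 genes that the study names as targets, 7 had a start site in all 4 lists and 9 in none. Plau, the urokinase protease, was narrower with GDF9, at 30.6 and 25.9 kb against 209 and 52.3 kb, and so was Col4a4, at 26.3 and 41.7 kb against 74.8 and 64.4 kb. Adamtsl4 had 122.9 and 88.5 kb against 126.5 and 290.4 kb, where 1 vehicle library stood far above the rest. Lama1 differed little, with 165.3 and 150.1 kb against 166.9 and 166 kb. The covered width of the whole Plau region overlapped, with 226 and 214 kb against 218 and 204 kb. In all, 4 of the 7 genes were narrower and 0 wider, against 33.2% and 8.12% of all genes. The study chose these genes on samples of this series, so the list is not independent evidence.

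**Figure D4:**
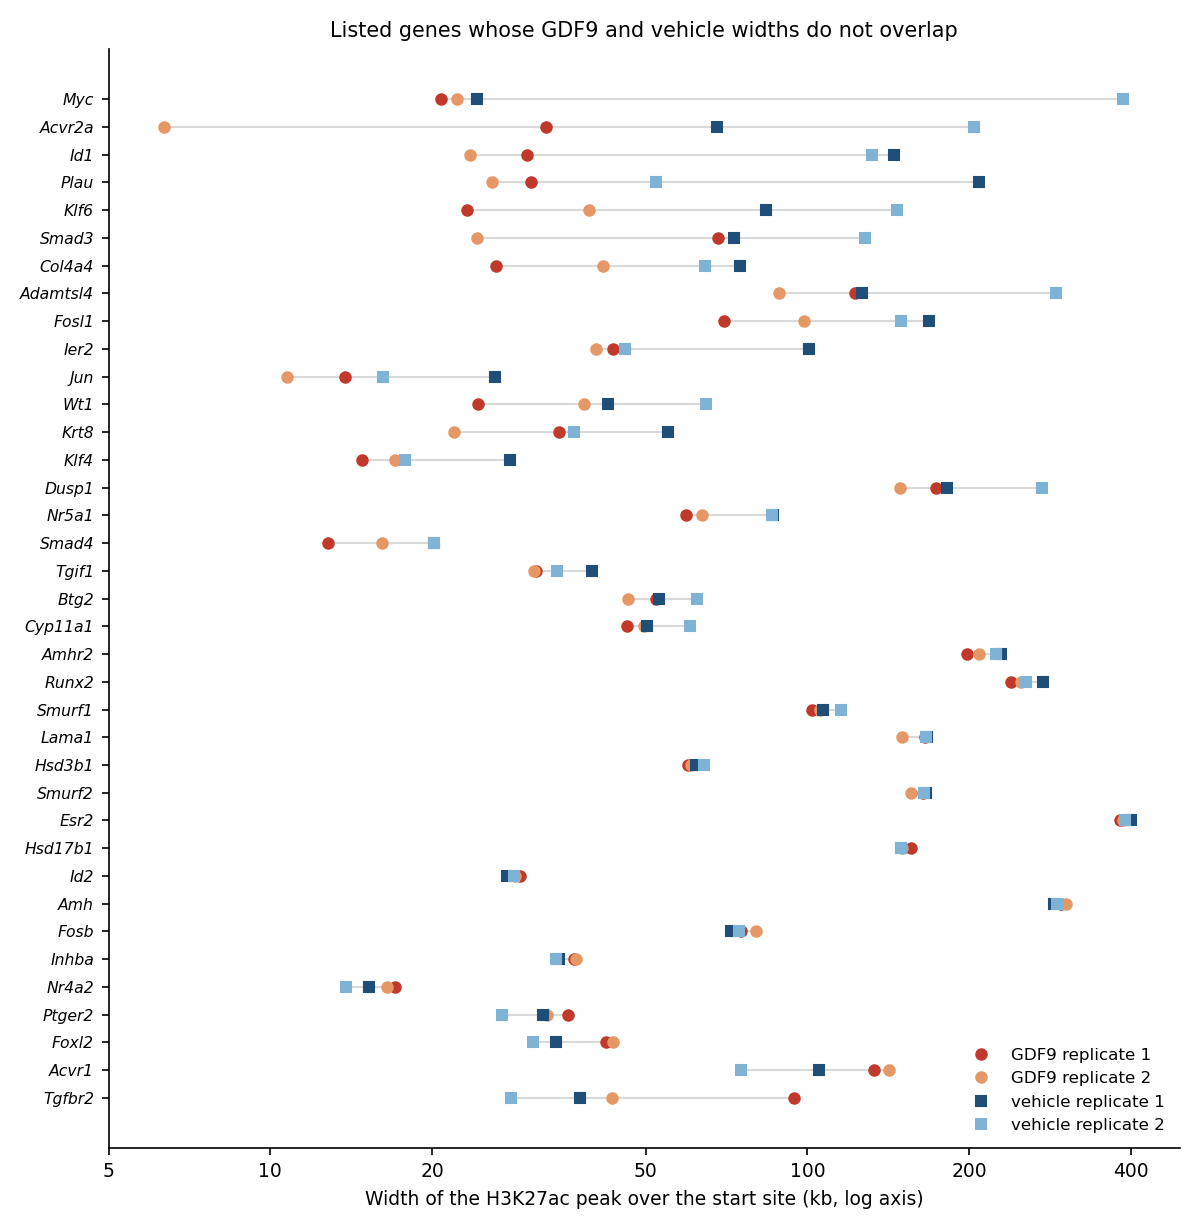
Width in kb (x, log axis) of the H3K27ac peak over the start site of 37 listed genes (y) whose GDF9 widths (circles) and vehicle widths (squares) do not overlap, 1 symbol per library, ordered from the most narrowed to the most widened. At Id1 the 4 values form 2 pairs far apart, and at Myc 1 vehicle library decides the distance.

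The signal in shared regions was compared next. For each region in all 4 lists, the highest scaled coverage of any of its peaks (maximum signal), the summed coverage (total signal), the bases in peaks (covered width) and their quotient (mean signal) were tested with limma on the log2 scale, with Benjamini-Hochberg adjustment over the 7720 regions. The maximum signal was higher with GDF9 in 54 regions (0.699% of those tested) and lower in 2 (0.0259%). At an unadjusted p under 0.05, 1109 were higher and 81 lower. The median difference over all regions was 0.09 on the log2 scale, and both GDF9 libraries exceeded both vehicle libraries in 2931 regions (38.0%), with the opposite in 604 (7.82%).

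These calls rest on few libraries and on the scaling. After each library was centred on its median, 7 regions were higher and 1 lower, and at an unadjusted p under 0.05 the split was 492 to 277 in place of 1109 to 81. Without GDF9 replicate 1 there was 1 higher and 0 lower, without GDF9 replicate 2 0 and 1, without vehicle replicate 1 100 and 10, and without vehicle replicate 2 119 and 14.

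The other measures gave no call in these regions. The limma test called 0 of 7720 regions (0%) for total signal, with 780 at an unadjusted p under 0.05 and a median difference of −0.04 (log2). It called 0 for covered width, with 597 at an unadjusted p under 0.05 and a median of −0.07, and 0 for mean signal, with 539 and a median of 0.03. With low values filled for regions missing from some lists, mean signal gave 360 calls, 354 higher and 6 lower. The filled value was the lowest of each library. The added regions include 786 in GDF9 lists alone and 45 in vehicle lists alone. Such regions differ by this rule, so the 360 calls do not show a change. The covered width of both GDF9 libraries lay below both vehicle libraries in 2302 regions (29.8%) and above in 713 (9.24%). Replicates correlated across regions at r = 0.965 with GDF9 and 0.952 with vehicle in log2 maximum signal, where regions share a library and are not replicates.

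The 54 regions that rose had maxima of 53.4 and 51.0 with GDF9 and 35.2 and 36.9 with vehicle (medians over regions), and differed by 0.38 to 1.07 (log2). Their total signal was higher in 39, and they were wider in 24, where all 7720 shared regions had 2779 and 2581. A start site lay in 24 of them (44.4%), against 63.8% of all shared regions. All 4 maxima lay within 1 kb of each other in 43 (79.6%), against 68.4% of all shared regions, and the GDF9 maxima lay apart from the vehicle maxima in 3 (5.56%, against 2.69% of all shared regions).

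The lowest p was that of the region at Dhx36 (chr3:62446728-62510285), a helicase that unwinds G-quadruplexes. Its maximum signal was 31.8 and 34.2 with GDF9 and 15.2 and 16.3 with vehicle, or 147 and 182 against 75 and 83 overlapping fragments. The difference was 1.07 ± 0.14 (log2, SE, limma adjusted p = 5.56e-04). The treatments did not overlap, and the place of the maximum differed as well. It lay near the Dhx36 start site in both GDF9 lists, in the window printed above, and 44.7 and 44.8 kb away in the vehicle lists. Total signal was 2.02e+05 and 2.19e+05 against 1.78e+05 and 1.91e+05, with a difference of 0.19 (log2, limma adjusted p = 0.542). Dhx36 was 1 of the 7 regions that rose after centring (limma adjusted p = 0.0144).

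The 4 regions that followed had a limma adjusted p of 0.00171 each and values that did not overlap. The region whose nearest start site is that of Zfpm1, a cofactor of GATA factors, had maxima of 63.3 and 62.6 against 38.5 and 40.9 (0.67, log2). The vehicle maxima lay 6 and 92 bases from that of GDF9 replicate 1. The region nearest to Tlr4, the lipopolysaccharide receptor, had 29.0 and 28.2 against 15.0 and 14.6 (0.95, log2). Here the vehicle maxima lay 11156 and 10299 bases from that of GDF9 replicate 1. The region near Tlr4 was also wider, with 21.0 and 22.0 kb against 11.4 and 13.9 kb. Its total signal was 86937 and 85692 against 40615 and 41554 (1.07, log2, limma adjusted p = 0.244). The region nearest to Cdh26, a cadherin, had 39.1 and 38.0 against 21.3 and 22.8 (0.81, log2). The region over Pla1a, Adprh, Cd80, Timmdc1 and Poglut1 had 62.2 and 55.8 against 37.7 and 36.0 (0.68, log2), and its total signal overlapped between treatments.

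The 2 regions that fell were weak. The region over Gja5, the gap junction protein connexin 40, and Gpr89 (chr3:96856000-96913503) had maxima of 7.13 and 7.33 with GDF9 and 15.0 and 14.9 with vehicle, or 33 and 39 against 74 and 76 fragments. It fell by 1.05 on the log2 scale (limma adjusted p = 0.0137). Its covered width was 28.2 and 34.8 kb against 57.5 and 46.6 kb. Its vehicle maxima lay 15342 and 15034 bases from that of GDF9 replicate 1. The region nearest to Ttc39a had 4.75 and 5.08 against 13.8 and 8.26, fell by 1.12 (log2, limma adjusted p = 0.0438) and was not called after centring (limma adjusted p = 0.161). Its maximum in GDF9 replicate 2 lay 5027 bases from that of GDF9 replicate 1, and its vehicle maxima 14892 and 15128 bases. The next 3 in this direction did not pass, with differences of −0.70 near Slc38a9, a lysosomal arginine sensor, −1.09 at Pot1b, a telomere protein, and −0.93 at Pdk4, a kinase that inhibits pyruvate dehydrogenase.

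**Figure D5:**
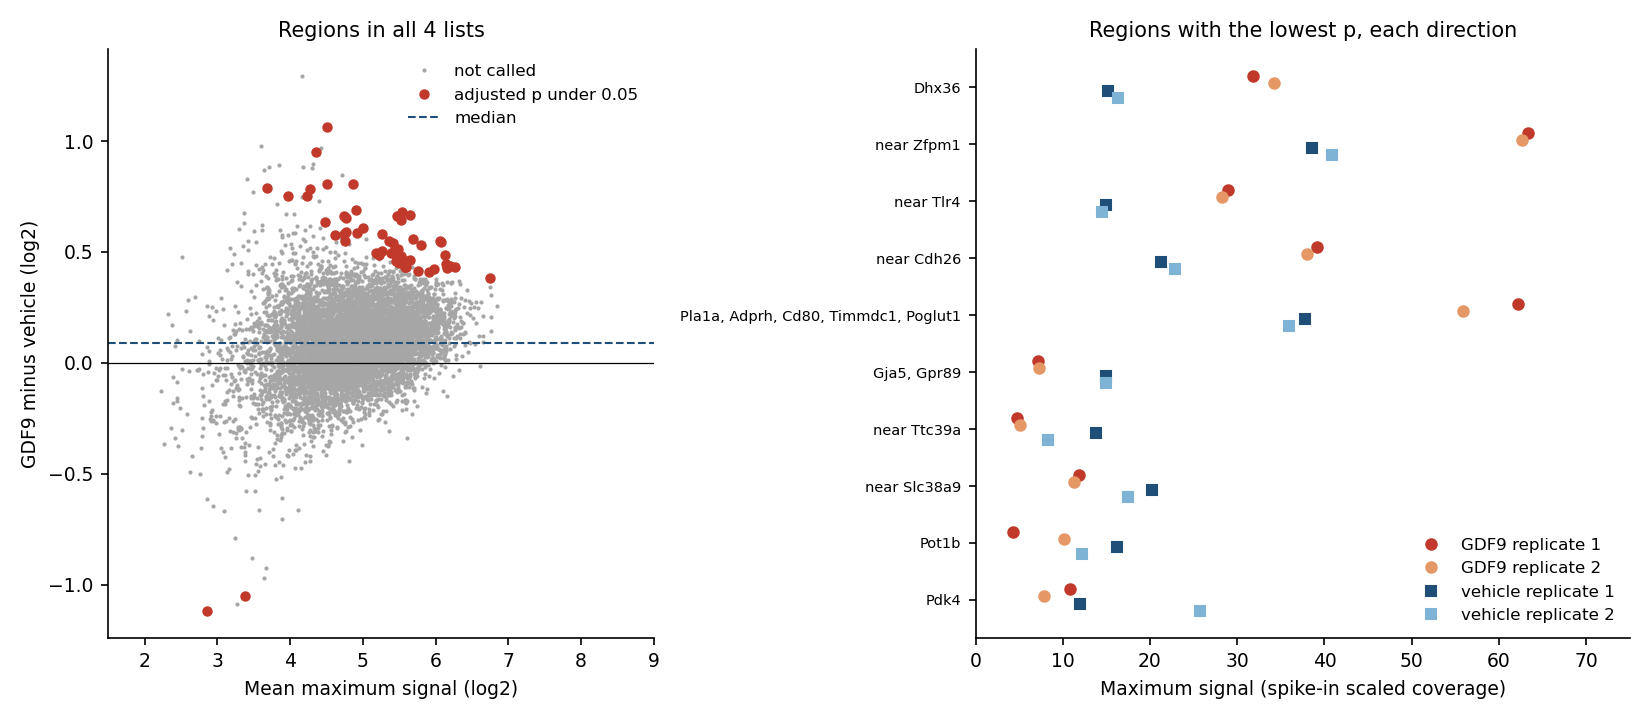
Left, difference in maximum signal between GDF9 and vehicle (y, log2) against mean maximum signal (x, log2) for regions in all 4 lists; filled red circles passed the limma test, the dashed line is the median of 0.09, and 6 regions lie beyond 9 on the x axis. Right, maximum signal (x, spike-in scaled coverage) in each library for the 5 regions (y) with the lowest p in each direction, with GDF9 as circles and vehicle as squares. The 5 upper regions show GDF9 values of 28.2 or more and vehicle values of 40.9 or less, without overlap within a region.

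No region with the start site of a listed gene was called in any of the 4 measures. Over the 17 shared regions of SMAD feedback genes the median difference in maximum signal was 0.09 (log2), with 15 above 0, and over all regions with a start site it was 0.08. The medians were 0.11 over the 19 regions of immediate early genes (15 above 0), 0.13 over the 11 of steroid genes (9), 0.12 over the 9 of granulosa markers (8), 0.17 over the 4 of cumulus genes (4), 0.09 over the 19 of receptors and SMADs (12) and 0.05 over the 8 of genes the study names (5). They were −0.01 over 2 regions of theca markers, 0.03 for Cd68, 0.02 over 2 of oocyte markers and 0.04 over 3 of surface epithelium markers, and stroma and endothelium had no shared region. Since 72.1% of all shared regions lay above 0, these counts are read against that share.

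The largest listed value was that of Dusp1, a phosphatase of MAP kinases, whose region had maxima of 81.5 and 86.7 with GDF9 and 67.1 and 63.7 with vehicle (0.36, log2, limma adjusted p = 0.0618). Its treatments did not overlap, and its summed total signal did (2.49e+06 and 2.37e+06 against 2.49e+06 and 2.44e+06). Ldlrad4, an inhibitor of TGFβ signaling, had 21.4 and 27.1 against 18.5 and 19.3 (0.35, log2, limma adjusted p = 0.265), and Jun 46.5 and 39.9 against 33.9 and 34.8 (0.33, log2, limma adjusted p = 0.169). Id2, a relative of Id1, had 48.6 and 52.8 against 50.5 and 47.6, which overlap.

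Regions found with GDF9 alone were mostly weak. A peak in both GDF9 lists and no vehicle list was found in 786 regions (6.75%) and the opposite in 45, but with the lists cut at 1 lowest total signal these counts were 59 and 274. Of the 786, 86.1% and 87.3% had a total signal under that limit in the GDF9 libraries.

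The SMAD proteins of the same line were then set beside these regions, as regions with a peak in both replicates. There were fewer such SMAD regions with GDF9 than with vehicle. They numbered 18412 against 19361 for SMAD2, 26115 against 32375 for SMAD3 and 24600 against 30299 for the HA tag. In the same order they covered 39.8 against 53.4 Mb, 67.7 against 84.1 Mb and 70.7 against 78.95 Mb. The shares with GDF9 and with vehicle below thus rest on lists of unlike size. Of the 7720 shared regions, 68.3% met a SMAD2 region of GDF9 cells and 76.0% one of vehicle cells, and the shares were 86.7% and 92.3% for SMAD3 and 84.2% and 90.9% for the HA tag. Of the 54 that rose in maximum signal, 74.1% and 90.7% met SMAD2, 94.4% and 100% SMAD3, and 92.6% and 96% the HA tag. These regions have about the median length of shared regions, 45.7 against 44.1 kb, and no test was made of the difference in these shares.

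Smad3PA/PA cells, with the PA tag on both Smad3 alleles, were treated in the same way and gave other lists, with 27587 to 29378 H3K27ac peaks per library. There GDF9 lists held fewer peaks than vehicle lists (27754 and 27587 against 29378 and 29240), and their median widths were 2.94 and 2.98 kb against 3.02 and 3.29 kb. They covered 108 and 109 Mb against 119 and 130 Mb, a ratio of 0.87 beside 0.979 in Smad2HA/+ cells. Peaks held a mean depth of 5.61 to 6.02 fragments, against 26.1 to 28.1 in Smad2HA/+ cells. In 6453 regions with a peak in all 8 lists, the limma interaction of line and treatment in maximum signal called 0 regions (0%), with 25 at an unadjusted p under 0.05. After centring it also called 0, with 418 at an unadjusted p under 0.05, and with the replicate block 0, with 367. The median maxima of the Smad3PA/PA lists were 13.6 and 21.5 with GDF9 and 14.5 and 18.8 with vehicle. This spread between replicates enters the test before centring, so its 0 calls do not show that the lines respond alike. The median GDF9 difference was 0.09 in Smad2HA/+ and 0.02 in Smad3PA/PA cells (log2).

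RNA was measured in Smad3PA/PA cells only, so the mark and the transcripts come from different lines. By limma on log2 (normalized count + 1), 328 genes were higher with GDF9 (2.60% of 12597 tested) and 127 lower (1.01%). Without 1 library these counts ran from 190 and 20 (without vehicle replicate 1) to 400 and 308 (without GDF9 replicate 2), with 264 and 172 without GDF9 replicate 1 and 237 and 53 without vehicle replicate 2, and they were 120 and 2 without a filter on low values. Malat1, a nuclear RNA whose level can move with RNA quality, stood at 28822 and 26912 normalized counts with GDF9 and 10976 and 11150 with vehicle, and its part in these changes was not tested. Of the 283 higher genes with a start site in the annotation used here, 240 (84.8%) lay in a peak of all 4 H3K27ac lists, and of the 122 lower ones 99 (81.1%), against 68.8% of tested genes that were not called. The maximum of that peak was higher in both GDF9 lists at 45% of the 240 and 34.3% of the 99, against 32.5% of all 9245 genes. It was narrower in both at 32.1% and 43.4%, against 33.2%.

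RNA and H3K27ac were also set side by side at single genes. Fos and Egr1, immediate early transcription factors, had RNA levels of 701 and 668 against 380 and 346, and of 1042 and 963 against 614 and 591 normalized counts (limma adjusted p = 2.49e-10 and 6.5e-10). Their H3K27ac maxima overlapped between treatments, with 55.5 and 49.6 against 51.5 and 45.04 at Fos and 22.5 and 24.8 against 26.6 and 23.6 at Egr1. Of 53 genes with a start site in a region whose maximum signal rose, 42 were tested in RNA, and 2 were higher, namely, chosen after their values were seen, Fam110c, with 951 and 974 against 806 and 790, and Zfp791, with 683 and 729 against 510 and 520. None of the 42 was lower. Over all tested genes these shares were 2.60% and 1.01%. These counts come from the 24 of 54 risen regions with a start site and leave out the others, which are named by the nearest gene. Of those nearest genes, chosen after their values were seen, Osgin2, Mast4, Prex1, Dact1 and Grem1 were higher in RNA, at 10.4 to 219 kb. Their limma adjusted p was 5.94e-06, 3.10e-04, 2.64e-04, 0.00824 and 5.35e-10, and no other such gene was called in either direction. The nearest genes tested in RNA were not counted, so no share can be set beside the 2.60% of all tested genes. A link between these regions and the RNA was not tested.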

How the data were processed

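The peak lists give, for each peak, its position, total signal and maximum signal, that is, coverage that the authors scaled to 100000 E. coli spike-in fragments. The authors aligned CUT&RUN reads to mm10 with Bowtie2, called peaks in each library with SEACR at default parameters and merged replicates with HOMER; here the lists of single libraries were used. The sources used here do not state the sequenced depth or whether IgG was the control. All maxima were whole multiples of the value of 1 fragment (within 0.05 fragments), which gave the spike-in fragments and the depth.

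Peaks of the 4 lists sharing at least 1 bp were joined into regions, and regions in all 4 lists were tested with limma 3.58.1 (trend) in R 4.3.3 without covariates; the rest was done in Python 3.11.15. Alternatives were a replicate block, lists cut at 1 lowest total signal (40281.8), gaps closed up to 3532 bp, stronger peaks only, filled low values, centring and leaving out a library. Closing gaps, and the cut for maximum signal and start sites, were chosen after seeing the data. Same-numbered replicates did not deviate together (r = 0.03 over 7720 regions), so numbers do not pair the samples. Start sites are those of protein-coding genes in GENCODE vM21.

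The RNA-seq values are normalized counts (signal) as deposited by the authors, after STAR 2.7.11b and featureCounts 2.1.1; DESeq2 1.48.2 is also named in the submitters' processing notes. As they are not raw counts, limma was run on log2(value + 1) where the mean reached 10. Whole reads were recovered in all 4 libraries, 10146695 and 10517816 with GDF9 and 8827825 and 11416005 with vehicle (100% of values whole within 0.05 reads; in 1 library the value of a read lies close to 1), and edgeR 4.0.16 on these called 352 higher and 114 lower genes. In the table, 3 columns without a name were not used.

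Named are members of the gene lists, the 5 regions of highest total signal, the 5 widest vehicle replicate 1 peaks split in both GDF9 lists and the 5 regions of lowest p in each direction of the maximum-signal test. Malat1, Fam110c, Zfp791, Osgin2, Mast4, Prex1, Dact1 and Grem1 were named after their values were seen. A region bears the names of the genes that start in it, or else of the nearest start site. The members and the lists were chosen with earlier results of these data known. The values of 1 listed gene and the sequence at 1 region are not reported here.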

Additional observations from a re-analysis of the deposited data

Results flagged for a closer look

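Outside chromosomes 1 to 19 and X, the GDF9 lists held 8 and 7 peaks and the vehicle lists 5 and 5. On an unplaced contig, a peak with a maximum signal of 11.7 and 13.9 (GDF9 replicates 1 and 2) was in both GDF9 lists and in no vehicle list, and on a contig assigned to the X chromosome so was a peak with a maximum of 20.5 and 21.8. These signals lie in data that no comparison above used, and they stand above the vehicle lists only in that no peak was listed there. Their total signals were 29582 and 28446 on the first contig and 31912 and 31307 on the second, under the lowest total signal of the vehicle lists (37022 and 40282). Whether the vehicle libraries held signal below their limits was not tested.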

How the results depend on the processing

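Of the values of the comparisons recomputed under alternatives, 33 moved and 68 did not. A value moved when it changed beyond the spread between replicates or, for counts, beyond 1.5 times. For splitting the spread was the SD over the 4 vehicle-to-GDF9 pairs (3.44 points), which share lists. The difference in median width (−7.96 kb) was −0.992 kb with 1 lowest total signal, −0.637 kb with short gaps also closed and −11.87 kb among the 50% of peaks with the largest maxima, and −9.44 to −6.48 kb without 1 library. The difference in peak number (2622) was −133.5, −276 and 1355 in the same settings and 2015 to 3230 without 1 library, and that in covered bases −40.29, −38.48 and 4.08 Mb, with −15.9 to −3.72 Mb without 1 library. The splitting difference (17.1 points) was 12.8 with 1 lowest total signal, 9.54 with gaps also closed, 22.7 for peaks over the 90th percentile (95.2 kb) and 12.55 to 21.64 without 1 library. Regions in GDF9 lists alone numbered 59 with 1 lowest total signal and 1973 where 1 replicate was enough, and those in vehicle lists alone 274 and 399. Calls for maximum signal (56) numbered 8 after centring, 125 in the stronger 50%, 863 with low values filled, 106 with 1 lowest total signal and 1 to 133 without 1 library, and those for mean signal (0) 360 with low values filled. With the replicate block, which pairs libraries by number only, they numbered 439, Slc38a9, Pot1b and Pdk4 passed (limma adjusted p = 0.00676, 3.38e-04 and 4.36e-04), and RNA calls were 717 in place of 455; it made no call for total signal, width or mean signal. Same-numbered libraries correlated at 0.02 to 0.03 in H3K27ac and 0.005 in RNA. RNA calls were 122 without a filter and 210 to 708 without 1 library. The cause of these changes was not tested. Filling low values makes regions of only 1 treatment differ by rule, so the 863 and 360 calls made with it do not show a change. Weak peaks are limited by the lists' own lowest total signal, and 2 libraries per treatment limit every test.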

Other observations

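The region of highest total signal was the same in all 4 lists, at Gm10801 and Gm10800 (chr2:98660960-98670544), a place known for reads from repeats. It was 9.59 kb long, with maxima of 40127 and 42646 with GDF9 and 28432 and 35825 with vehicle, and it was not called (limma adjusted p = 0.781). Below it stood Msi2, an RNA-binding protein of progenitor cells, Fndc3b, the stretch from Rnft1 to Dhx40, and Zmiz1, a coactivator, with none called. Msi2 had a total signal of 5.83e+06 and 5.61e+06 with GDF9 and 5.64e+06 and 5.43e+06 with vehicle, in a single peak of 397 to 412 kb in each list. Fndc3b had 5.65e+06 and 5.43e+06 against 5.54e+06 and 5.40e+06, and Zmiz1 5.40e+06 and 5.15e+06 against 5.02e+06 and 4.77e+06, where the treatments do not overlap (0.11, log2, limma adjusted p = 0.56).

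Other motifs in the 300-base windows at the GDF9 replicate 1 maxima were counted on both strands. The AP-1 letters TGANTCA stood in 11.8% of the windows of shared regions, 9.26% of the 54 that rose in maximum signal and 19.97% of the 786 in GDF9 lists alone, against 7.81% of RefSeq promoters. The NR5A letters AAGGTCA stood in 7.14%, 3.704%, 8.52% and 4.72%, the FOX letters TGTTTAC in 4.64%, 3.704%, 5.34% and 3.65%, and the GATA letters AGATAA in 17.0%, 14.8%, 19.8% and 11.2%. The SMAD letters CAGAC stood in 57.4% of the windows that rose and 49.4% of those in GDF9 lists alone. The windows differ in base composition, with a median GC content of 47%, 47.5%, 44% and 52.7% in the same order.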
